A study of Sus scrofa with 8 samples.

Results

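The genes described here encode the proteasome, the protease complex that degrades ubiquitin-tagged proteins in the cytoplasm and nucleus. They were measured by RNA-seq in pig endometrium, the inner lining of the uterus, on day 14 of pregnancy and in non-pregnant controls. Members were all genes whose Entrez identifier carries a pig symbol that begins with PSMA, PSMB, PSMC, PSMD or PSME and a digit, and each gene was represented by its transcript with the highest mean count. Of 44 such symbols in the RefSeq gene table, 38 matched the count tables, out of 21064 Entrez genes in all. PSMB1, PSMB2, PSMB3, PSMB10, PSMC4 and PSMD7 matched no transcript and are not analysed here. The rule takes genes by their letters and therefore also holds PSMC3IP, which encodes a factor of meiotic recombination and not a proteasome subunit.

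The barrel-shaped core particle of the proteasome is built from alpha rings, which gate the entrance, and beta rings, which carry the protease sites. In human and mouse cells, PSMB5 carries the chymotrypsin-like site, PSMB6 the caspase-like site and PSMB7 the trypsin-like site. Interferon-gamma induces PSMB8, PSMB9 and PSMB10, which take their places in newly built particles and give the immunoproteasome, a form that yields more peptides suited to MHC class I molecules. PSME1 and PSME2 together form PA28, an interferon-induced cap on the core, whereas the regulatory particle, made of PSMC and PSMD subunits, recognises and unfolds tagged proteins.

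The pregnant group consisted of 4 German Landrace gilts (young female pigs) inseminated with Pietrain semen at 24 and 36 h after hCG, and the control group of 4 gilts of the same breed that received the cell-free supernatant of semen from the same boar. All 8 gilts were prepuberal and had been given 750 IU of PMSG and, 72 h later, 500 IU of hCG to set the time of ovulation, so both groups carried this hormone treatment. Pregnant tissue came from the reddened zones where embryos attach and control tissue from comparable places, so that pregnancy and the choice of zone cannot be told apart. RNA from 3 places along 1 uterine horn was pooled for each animal, and each library stands for 1 animal. Total counts ran from 29009827 to 41016150 in pregnant libraries and from 28035007 to 32639743 in control libraries, and the 38 members held 0.213% to 0.287% of the counts of a library. Of the 38 members, 36 had enough reads to be tested, with at least 212 reads in every library. Levels are given as CPM, the count of a gene relative to the scaled size of its library, and as means ± SD with n = 4 per group. Log2 changes are pregnant over control ± SE from the quasi-likelihood test of edgeR. Its p-values were adjusted by the Benjamini-Hochberg method over all 18783 transcripts tested, and 0.05 was the threshold.

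All 4 immune genes that could be measured rose in pregnant endometrium, the catalytic subunits PSMB8 and PSMB9 most and the PA28 genes PSME1 and PSME2 less. Among all transcripts tested, 11.2% passed as higher and 10.1% as lower. Of the 32 other members tested, 6 rose and 1 fell, or 21.9% called in either direction, beside 21.3% among all transcripts. Groups did not overlap, with pregnant higher, in all 4 immune genes and in 9 of the 32 others, and in 0 with pregnant lower. Among all transcripts 26.1% did not overlap, 13.2% with pregnant higher and 12.9% with pregnant lower. The median log2 change was 1.69 over the 4 immune genes, 0.08 over the 32 others and −0.02 over all transcripts. Of the 6 that rose, 5 encode alpha-ring subunits, and the genes of the constitutive protease sites and of the regulatory particle did not pass.

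PSMB8 (Entrez gene 396975; Sscrofa10.2 chromosome 7, 29425069 to 29428072) had 168.2, 213.9, 231.2 and 188.5 CPM in pregnant replicates 1 to 4, against 65.42, 26.35, 40.69 and 32.37 CPM in control replicates 1 to 4. Every pregnant library was above every control library, and control replicate 1 was the highest of the controls. The log2 change was 2.28 ± 0.26 (edgeR adjusted p = 1.78e-04), a 4.87-fold rise. Without control replicate 1 the log2 change was 2.62.

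PSMB9 (Entrez gene 654294; chromosome 7, 29438819 to 29443904) had 161.4, 229.8, 243.8 and 190.1 CPM in pregnant replicates 1 to 4, against 46.87, 19.26, 27.45 and 24.43 CPM in control replicates 1 to 4. The groups did not overlap, and the libraries stood in the same order as for PSMB8 within each group. The log2 change was 2.81 ± 0.27 (edgeR adjusted p = 5.855e-05), and 3.14 without control replicate 1. The catalytic genes did not rise by the same amount. Per kb of exon, the ratio of PSMB9 to PSMB8 lay between 1.007 and 1.127 in pregnant libraries and between 0.708 and 0.792 in control libraries, a description chosen after the values were seen and given without a test.

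PSME1 (Entrez gene 397572; chromosome 7, 80433125 to 80435825), the alpha subunit of PA28, had 179, 212.8, 261.1 and 195.9 CPM in pregnant replicates 1 to 4, against 149.4, 109.8, 119.6 and 108.1 CPM in control replicates 1 to 4. PSME2 (Entrez gene 397522; chromosome 7, 80425890 to 80429161), the beta subunit, had 85.57, 117.3, 131.5 and 105.1 CPM in pregnant replicates 1 to 4, against 59.04, 47.02, 51.08 and 46.97 CPM in control replicates 1 to 4. In both genes the groups were separate, with pregnant replicate 1 lowest in its group and control replicate 1 highest in its own. The log2 change was 0.80 ± 0.15 for PSME1 and 1.11 ± 0.15 for PSME2 (edgeR adjusted p = 0.00385 and 4.78e-04). Per kb of exon, the ratio of PSME2 to PSME1 was 0.568 to 0.656 in pregnant libraries and 0.47 to 0.517 in control libraries, also given without a test. PSME1 shares 4 exonic bases with EMC9 on the opposite strand, and the library kit does not mark strand.

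**Figure D1:**
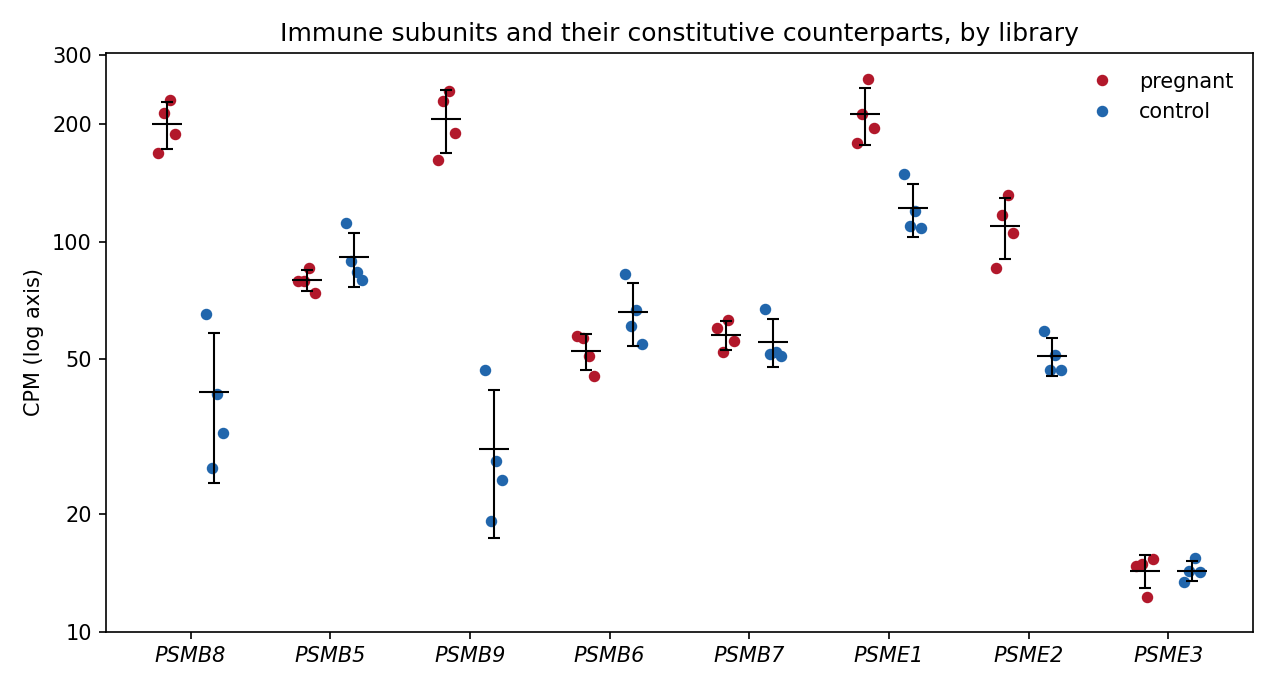
CPM on a log axis of the 4 immune genes and of PSMB5, PSMB6, PSMB7 and PSME3 in each of the 4 pregnant (left of each pair) and 4 control libraries. Points are libraries, horizontal bars are means and error bars are SD. PSMB8, PSMB9, PSME1 and PSME2 show no overlap between groups, while the ranges of the other 4 genes overlap.

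The constitutive counterparts of the catalytic genes did not pass, and neither did the activator gene PSME3. PSMB5 had 79.23, 79.38, 85.76 and 73.89 CPM in pregnant replicates 1 to 4, against 111.9, 89.07, 83.67 and 79.74 CPM in control replicates 1 to 4 (log2 change −0.20 ± 0.13, edgeR adjusted p = 0.309). PSMB6 averaged 52.46 ± 5.66 CPM in pregnant and 66.11 ± 12.03 CPM in control libraries (−0.33 ± 0.15, edgeR adjusted p = 0.134), and its unadjusted p was under 0.05. PSMB7, the counterpart of the unmatched PSMB10, averaged 57.7 ± 4.82 CPM in pregnant and 55.42 ± 7.79 CPM in control libraries (0.06 ± 0.13, edgeR adjusted p = 0.785). The ranges of the groups overlapped in these 3 genes. PSME3 encodes the gamma form of PA28, a nuclear cap that is not induced with the immune subunits, and it averaged 14.35 ± 1.38 CPM in pregnant and 14.34 ± 0.84 CPM in control libraries (0.00 ± 0.13, edgeR adjusted p = 0.998).

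PSMB8 against PSMB5, PSMB9 against PSMB6, and PSME1 and PSME2 against PSME3 were tested as count ratios within each library. Such a ratio does not depend on the scaling between libraries. The ratio of PSMB8 to PSMB5 was 2.12, 2.69, 2.7 and 2.55 in pregnant replicates 1 to 4, against 0.585, 0.296, 0.486 and 0.406 in control replicates 1 to 4. It was 5.83-fold higher in pregnant libraries, a log2 difference of 2.54. The ratio of PSMB9 to PSMB6 was 2.82, 4.06, 4.79 and 4.21 in pregnant replicates 1 to 4, against 0.568, 0.318, 0.412 and 0.447 in control replicates 1 to 4, a log2 difference of 3.19. For PSME1 to PSME3 the mean log2 ratio was 3.88 ± 0.37 in pregnant and 3.07 ± 0.27 in control libraries (difference 0.80), and for PSME2 to PSME3 it was 2.92 ± 0.37 in pregnant and 1.83 ± 0.21 in control libraries (difference 1.10; SD, n = 4 each). PSME3 itself had a log2 change of 0.00, so the ratios to it repeat the changes of PSME1 and PSME2. In each of the 4 ratios all 4 pregnant libraries were above all 4 control libraries. The two-sided exact permutation test over 70 splits gave p = 0.0286 for each, which is the smallest p that this design allows and is also the value after Benjamini-Hochberg adjustment over the 4 ratios.

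Levels of different genes can be set side by side only per length. Per kb of exon of the transcript counted, PSMB8 was at 213.5 ± 29.6 CPM per kb in pregnant and 43.88 ± 18.3 CPM per kb in control libraries, and PSMB5 at 58.38 ± 3.56 and 66.84 ± 10.6 CPM per kb in pregnant and control libraries. PSMB8 therefore made up 75.49%, 79.64%, 79.65% and 78.74% of PSMB8 plus PSMB5 in pregnant replicates 1 to 4, and 45.9%, 30.05%, 41.38% and 37.07% in control replicates 1 to 4. PSMB9 made up 72.26%, 78.92%, 81.56% and 79.55% of PSMB9 plus PSMB6 in pregnant replicates 1 to 4, and 34.37%, 22.66%, 27.55% and 29.23% in control replicates 1 to 4. At both positions the immune gene had the larger share in every pregnant library and the smaller share in every control library. The shares are of messenger RNA, and depend on transcript models that hold different amounts of untranslated sequence.

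**Figure D2:**
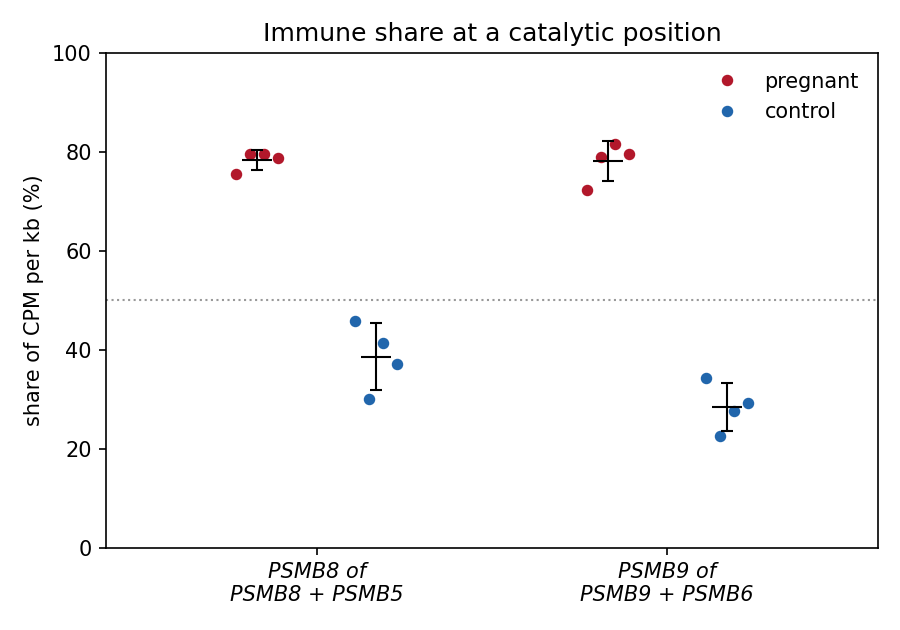
Share of the immune gene at a catalytic position, in percent of the summed CPM per kb of the immune and constitutive gene, in 4 pregnant (left) and 4 control libraries. Points are libraries, bars are means and SD, and the dotted line marks equal levels. PSMB8 runs from 75.49% to 79.65% in pregnant and from 30.05% to 45.9% in control libraries.

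In the alpha ring, 5 of 7 tested genes rose, or 71.4% beside 11.2% of all transcripts, and 0 fell. PSMA3 had 32.84, 34.07, 50.59 and 46.43 CPM in pregnant replicates 1 to 4, against 17.43, 26.32, 24.43 and 19.96 CPM in control replicates 1 to 4 (log2 change 0.89 ± 0.19, edgeR adjusted p = 0.00638). PSMA2 had 65.89, 82.47, 109.4 and 82.16 CPM in pregnant replicates 1 to 4, against 47.38, 53.43, 54.83 and 44.97 CPM in control replicates 1 to 4 (0.76 ± 0.16, edgeR adjusted p = 0.0057). PSMA1 had 43.49, 43.95, 53.8 and 46.52 CPM in pregnant replicates 1 to 4, against 23.94, 30.82, 33.06 and 27.76 CPM in control replicates 1 to 4 (0.70 ± 0.13, edgeR adjusted p = 0.00409). The groups did not overlap in any of these genes, and pregnant replicate 3 was the highest library in each. These rises were of less than 2-fold. By its log2 change PSMA3 stood above PSME1 (0.80) and below PSME2 (1.11), and PSMA2 and PSMA1 stood below both.

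PSMA6 averaged 65.12 ± 17.5 CPM in pregnant and 42.23 ± 3.71 CPM in control libraries (0.62 ± 0.18, edgeR adjusted p = 0.0284), and PSMA5 29.4 ± 5.38 CPM in pregnant and 20.3 ± 2.15 CPM in control libraries (0.53 ± 0.16, edgeR adjusted p = 0.0327). Both were separate between groups but near the threshold. The call for PSMA6 was lost when control replicate 3, control replicate 4, pregnant replicate 2 or pregnant replicate 3 was left out (edgeR adjusted p = 0.0577 to 0.0629). The call for PSMA5 was lost when control replicate 3, control replicate 4 or any single pregnant replicate from 2 to 4 was left out (0.0663 to 0.0892). PSMA4 averaged 27.96 ± 4.72 CPM in pregnant and 21.94 ± 4.73 CPM in control libraries and did not pass (0.35 ± 0.19, edgeR adjusted p = 0.219). PSMA7 was at 97.94 ± 10.04 CPM in pregnant and 97.79 ± 17.04 CPM in control libraries (0.00 ± 0.14, edgeR adjusted p = 0.993), and its exons overlap those of a gene on the opposite strand. Control replicate 1 was the lowest control for PSMA1, PSMA3 and PSMA4 and the highest for PSMA7. Without it, the same 5 alpha genes passed, with log2 changes of 0.60 for PSMA5, 0.61 for PSMA6, 0.64 for PSMA1, 0.76 for PSMA2 and 0.82 for PSMA3. PSMA8, an alpha subunit of the mouse testis, had 1 read, in control replicate 3.

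The beta ring has PSMB4, a structural subunit without a protease site, beside the catalytic genes. It averaged 106.2 ± 12.4 CPM in pregnant and 90.41 ± 10.01 CPM in control libraries and did not pass (0.23 ± 0.12, edgeR adjusted p = 0.216). Thus 0 of the 4 tested constitutive beta genes passed, beside 21.3% of all transcripts, with 1 at an unadjusted p under 0.05. DESeq2 and limma voom also passed 0. PSMB11, the catalytic subunit of cortical epithelium in the mouse thymus, had 0 reads in every library. Whether the alpha and the constitutive beta genes differed in their change was not tested.

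**Figure D3:**
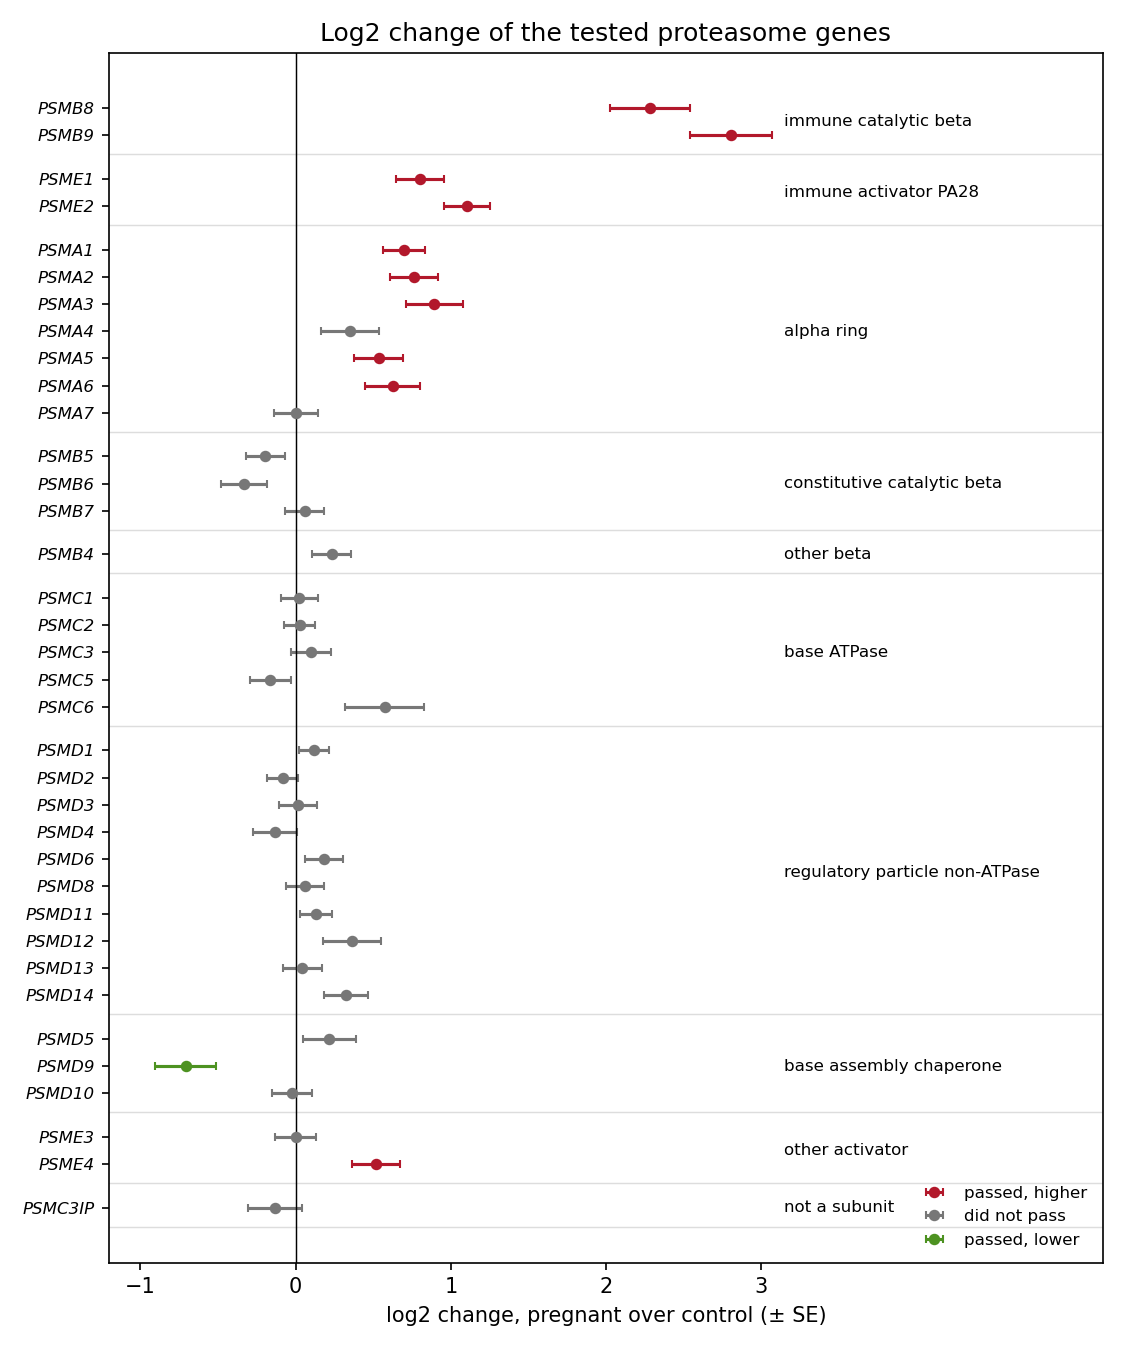
Log2 change of the 36 tested members, pregnant over control, with SE, grouped by role. Red points passed as higher, green as lower and grey points did not pass at an edgeR adjusted p of 0.05. PSMB9 (2.81) and PSMB8 (2.28) lie farthest to the right, followed by PSME2 (1.11), and PSMD9 (−0.71) farthest to the left.

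Of the 15 tested genes of the regulatory particle 0 passed, beside 21.3% of all transcripts, with 2 at an unadjusted p under 0.05. In 3 of the 15, PSMC6, PSMD1 and PSMD11, every pregnant library lay above every control library, as in 13.2% of all transcripts. The base of the particle holds, beside other subunits, a ring of ATPases that unfold the substrate. Of these ATPases 5 were tested and 0 passed. PSMC1, PSMC2, PSMC3 and PSMC5 had log2 changes of −0.16 to 0.10. PSMC6 had 24.06, 23.6, 30.41 and 27.76 CPM in pregnant replicates 1 to 4, against 8.817, 23.24, 21.01 and 18.02 CPM in control replicates 1 to 4. The groups did not overlap, but control replicate 1 was far below the other controls, and the log2 change of 0.57 ± 0.25 did not pass (edgeR adjusted p = 0.139; 0.37 without control replicate 1, adjusted p = 0.096).

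Of the 10 tested non-ATPase subunits of the regulatory particle, 0 passed, beside 21.3% of all transcripts, with 1 at an unadjusted p under 0.05. That gene was PSMD14, the enzyme that removes ubiquitin chains from the substrate, at 22.41 ± 2.39 CPM in pregnant and 17.91 ± 2.18 CPM in control libraries (0.32 ± 0.14, edgeR adjusted p = 0.134). The scaffold genes PSMD1 and PSMD2 were at 67.06 ± 1.74 and 207.9 ± 5.11 CPM in pregnant and 61.81 ± 2.2 and 220.4 ± 16.2 CPM in control libraries. PSMD1, with no overlap between groups, had a log2 change of 0.12 ± 0.09, and PSMD11, also without overlap, of 0.13 ± 0.11. PSMD4, a ubiquitin receptor, had a log2 change of −0.13 ± 0.14. The genes PSMD3, PSMD6, PSMD8, PSMD11, PSMD12 and PSMD13 had log2 changes of 0.02 to 0.36, with edgeR adjusted p of 0.199 to 0.941. DESeq2 and limma voom passed 0 of the 15 tested regulatory particle genes.

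PSMD9 was the member that fell. In yeast and human cells it acts as a chaperone that helps to assemble the ATPase ring and is absent from the finished particle. It had 32.13, 37.34, 46.92 and 34.05 CPM in pregnant replicates 1 to 4, against 66.67, 76.43, 62.6 and 40.19 CPM in control replicates 1 to 4. The groups overlapped, since control replicate 4 lay below pregnant replicate 3. The log2 change was −0.71 ± 0.20 (edgeR adjusted p = 0.0264). Leaving out any of control replicates 1, 2 and 3 or pregnant replicates 1, 2 and 4 ended this call (0.058 to 0.0744). The other chaperones of the base, PSMD5 and PSMD10, had log2 changes of 0.22 ± 0.17 and −0.03 ± 0.13 and did not pass.

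PSME4, which encodes the activator PA200, had 26.58, 33.11, 34.34 and 37.68 CPM in pregnant replicates 1 to 4, against 17.91, 24.74, 23.83 and 25.46 CPM in control replicates 1 to 4. It rose with no overlap between groups (0.52 ± 0.16, edgeR adjusted p = 0.0372). Leaving out control replicate 3 or any of pregnant replicates 2, 3 and 4 ended this call (0.0742 to 0.106). The recombination factor gene PSMC3IP was at 8.57 ± 1.33 CPM in pregnant and 9.42 ± 1.33 CPM in control libraries (−0.13 ± 0.17, edgeR adjusted p = 0.629).

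Per kb of exon, the immune genes changed their place among the core genes. In pregnant libraries PSMB9 averaged 230.5 ± 42 and PSMB8 213.5 ± 29.6 CPM per kb, above the highest constitutive core gene, PSMA7, at 124.3 ± 12.8 CPM per kb. In control libraries PSMB8 averaged 43.88 ± 18.3 and PSMB9 32.96 ± 13.5 CPM per kb. That was below each of the 4 tested constitutive beta genes, from 57.49 CPM per kb for PSMB7 to 95.67 CPM per kb for PSMB4. It was within the range of the 7 tested alpha genes and above their median of 29.9 CPM per kb. Those alpha genes ran from 15.68 CPM per kb for PSMA3 to 124.1 CPM per kb for PSMA7 in control libraries. The mean levels of PSMB8 and PSMB9 differed by less than their SD between libraries in both groups. Within each library, though, the ratio of PSMB9 to PSMB8 was 1.007 to 1.127 in pregnant and 0.708 to 0.792 in control libraries. PSME1, at 218.8 ± 36.5 CPM per kb in pregnant and 125.5 ± 19.7 CPM per kb in control libraries, was near PSMA7 in control libraries. The genes of the regulatory particle spread more widely, from 10.15 CPM per kb for PSMD12 to 99.57 CPM per kb for PSMC5 in pregnant libraries and from 7.88 CPM per kb for PSMD12 to 111.4 CPM per kb for PSMC5 in control libraries, although their products are parts of one complex.

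**Figure D4:**
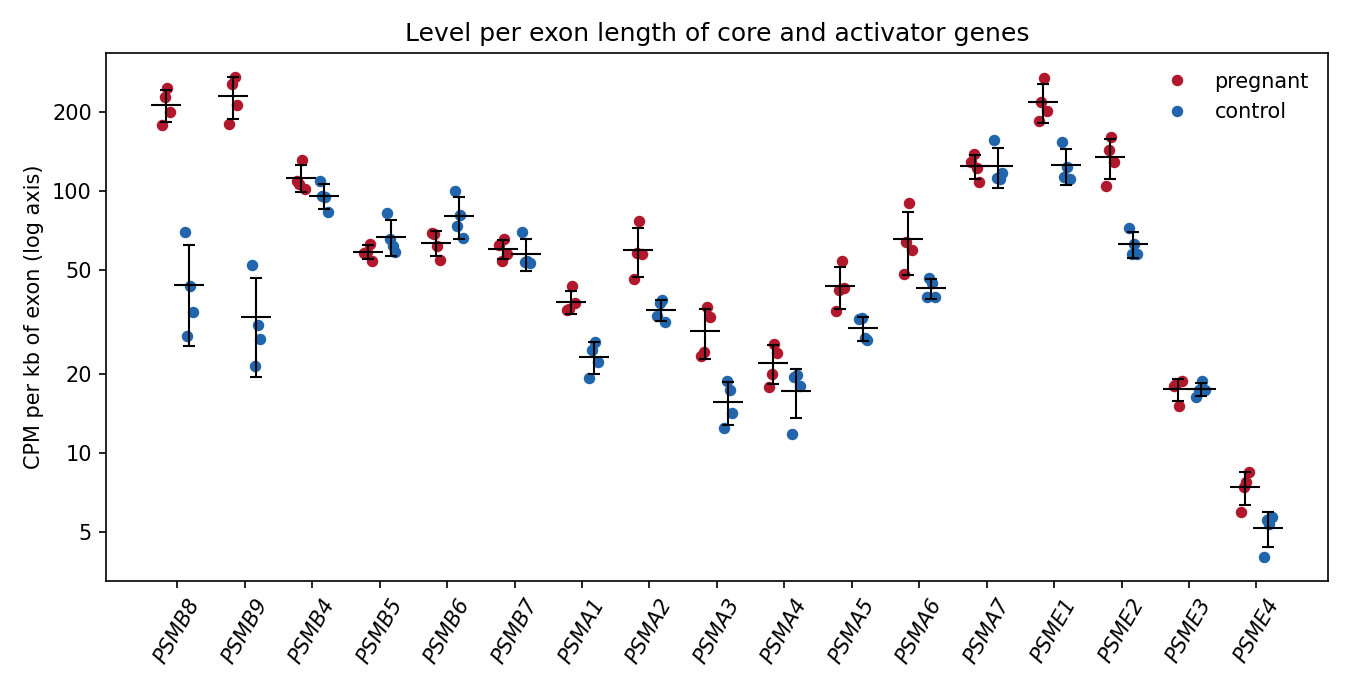
CPM per kb of exon on a log axis for the tested core and activator genes in 4 pregnant (left of each pair) and 4 control libraries, with means and SD. PSMB8 and PSMB9 lie below PSMB4, PSMB5, PSMB6 and PSMB7 by their control means and above them by their pregnant means.

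The immune members share their places in the genome. PSMB8 and PSMB9 lie in the MHC region of chromosome 7, 10746 bases apart, and PSME2 and PSME1 lie 3963 bases apart farther along the same chromosome. Within 50 kb around PSMB8 and PSMB9, all 6 other annotated genes rose, beside 11.2% of all transcripts. Their log2 changes ran from 2.06 ± 0.19 for the peptide transporter gene TAP2 to 2.96 ± 0.25 for the class II gene SLA-DMB. Entrez gene 100520621, which the table leaves without a symbol, lies on the opposite strand head to head with PSMB9, with 158 bases between them, and rose by 2.78 ± 0.22, beside 2.81 ± 0.27 for PSMB9. The model named TAP1 lies outside this stretch, at 29274669 to 29283289, and rose by 2.78 ± 0.20. Whether it and Entrez gene 100520621 are separate genes was not tested. Several MHC genes resemble each other closely, and how reads were divided among them is uncertain. Around PSME1 and PSME2 the neighbours did not rise together. Of 9 tested genes 2 rose, the interferon signalling gene IRF9 (0.54 ± 0.13) and the cohesin gene REC8 (1.02 ± 0.16), 1 fell, IPO4 (−0.46 ± 0.15, edgeR adjusted p = 0.0499), and 6 did not pass. Among all transcripts 11.2% rose and 10.1% fell. EMC9, between PSME2 and PSME1, had a log2 change of −0.50 ± 0.20 (edgeR adjusted p = 0.108).

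**Figure D5:**
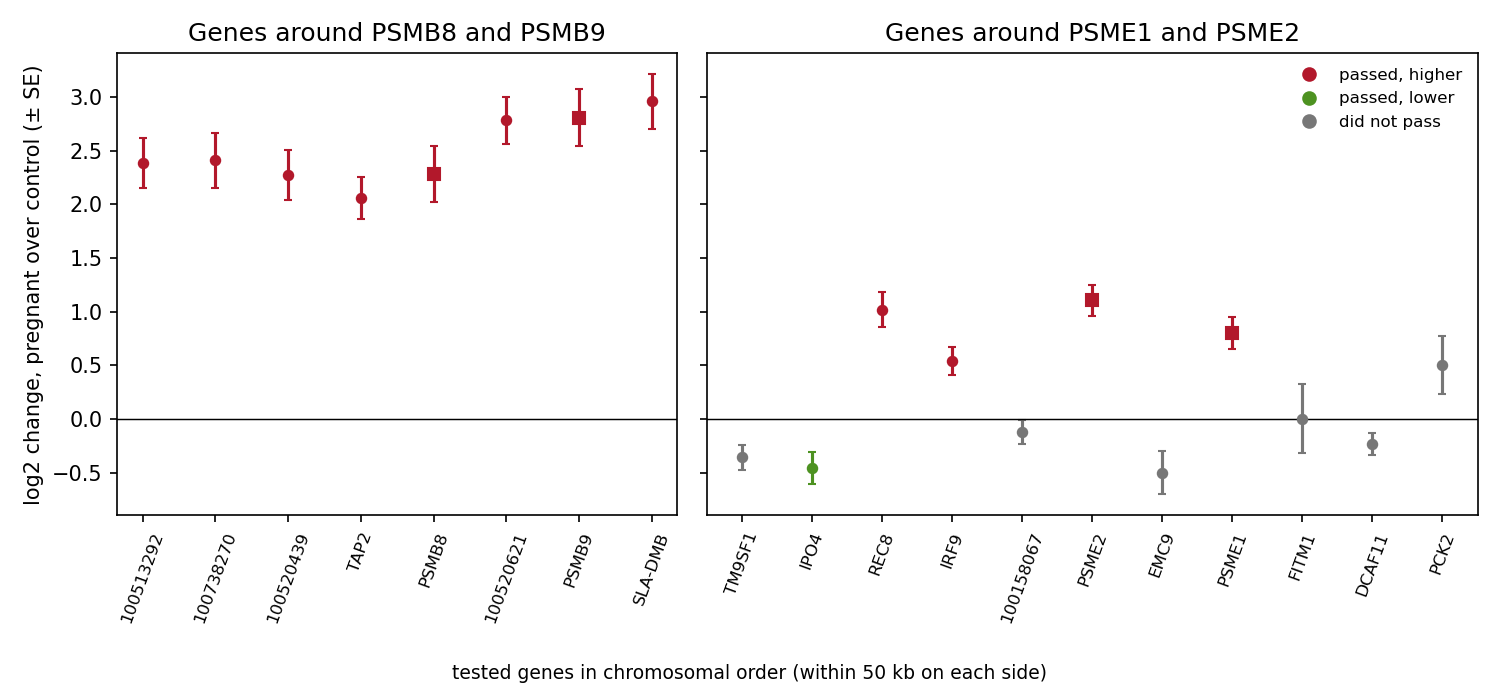
Log2 change, pregnant over control, with SE, of the tested genes within 50 kb of PSMB8 and PSMB9 (left) and of PSME1 and PSME2 (right) in chromosomal order; squares are the immune proteasome genes, and numbers are Entrez genes without a symbol. Every gene on the left lies above 2, whereas on the right PSME2 (1.11) and PSME1 (0.80) stand among genes from −0.50 to 1.02.

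Genes that work with the proteasome were counted list by list. Of 9 matched genes of interferon signalling 7 rose and 0 fell, with a median log2 change of 0.99. That is 77.8% higher, beside 11.2% of all transcripts. IRF1, the transcription factor that induces PSMB8 and PSMB9 in mouse and human cells, rose by 3.29 ± 0.19, STAT2 by 1.99 ± 0.21, the inhibitor gene SOCS1 by 2.41 ± 0.34 and IRF2 by 0.99 ± 0.18. Of 15 genes of peptide trimming, transport and loading 7 rose and 0 fell (median 0.50), or 46.7% higher, beside 11.2% of all transcripts. Among them were TAP1 (2.78 ± 0.20), TAP2, the class I light chain gene B2M (1.79 ± 0.24) and the aminopeptidase gene LAP3 (1.92 ± 0.30), at 141 ± 60.1 CPM in pregnant and 37.24 ± 4.99 CPM in control libraries. In the chaperone gene CALR (−0.32 ± 0.11, edgeR adjusted p = 0.0597) and the peptidase gene THOP1 (−0.26 ± 0.11, edgeR adjusted p = 0.138) every pregnant library lay below every control library, and neither passed.

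Of 12 matched assembly factors, bound cofactors and transcription factors of the proteasome 3 rose and 2 fell (median 0.09), or 41.7% called, beside 21.3% of all transcripts. NFE2L2, a transcription factor that induces proteasome genes under oxidative stress, was at 263.7 ± 19.4 CPM in pregnant and 123.4 ± 14.9 CPM in control libraries (1.10 ± 0.12, edgeR adjusted p = 1.64e-04). NGLY1, the enzyme that strips sugars from the related factor NFE2L1 in human cells, was at 58.73 ± 9.14 CPM in pregnant and 23.13 ± 4.86 CPM in control libraries (1.34 ± 0.17, edgeR adjusted p = 4.07e-04). The core assembly gene PSMG3 (−0.57 ± 0.14) and the regulatory particle assembly gene PAAF1 (−0.91 ± 0.24) fell. PAAF1 overlaps a gene on the opposite strand.

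Of 14 matched genes of ubiquitin and similar modifiers 3 rose and 0 fell (median 0.01), or 21.4% called, beside 21.3% of all transcripts. UBD, also called FAT10, a modifier that delivers proteins to the proteasome, was at 66.86 ± 20.8 CPM in pregnant and 6.86 ± 2.27 CPM in control libraries (3.29 ± 0.29, edgeR adjusted p = 4.198e-05). UBA7 and UBE2L6, the activating and conjugating enzymes of ISG15, rose by 2.85 ± 0.26 and 2.25 ± 0.20.

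In mouse and human, immune cells express immune subunits without interferon. Most markers of T cells, of natural killer cells and of macrophages and dendritic cells were higher in pregnant libraries, as the immune proteasome genes were. Most tested markers of B and plasma cells did not pass. Whether markers and proteasome genes varied together from library to library was not tested. In tissue samples, fewer cells of a type and less RNA per cell cannot be told apart. The marker counts below stand beside 11.2% higher and 10.1% lower among all transcripts. Of 8 T cell markers 7 rose, with a summed level of 90.56 to 160.5 CPM in pregnant and 25.69 to 70.81 CPM in control libraries. Of 7 natural killer and cytotoxic markers 6 rose (62.23 to 112.5 CPM summed in pregnant and 13.21 to 32.42 CPM in control libraries). Of 8 markers of macrophages and dendritic cells 7 rose (733.2 to 958.2 CPM in pregnant and 269.4 to 454 CPM in control libraries), and 1 fell, MRC1 (−0.77 ± 0.22). Of 4 tested B and plasma cell markers 1 rose (39.85 to 196 CPM in pregnant and 28.05 to 38.84 CPM in control libraries, summed over the 5 matched). The upper end is pregnant replicate 3, with 187.2 CPM of the immunoglobulin chain gene JCHAIN, beside 32.73 to 64.91 CPM in the other pregnant libraries. PTPRC, present on all leukocytes, was at 51.69 ± 11.4 CPM in pregnant and 12.43 ± 3.97 CPM in control libraries. CD5, CD68 and CD163 of these lists matched no transcript, and no matched marker was at 0 in all libraries. The labelled tissue showed its own markers in both groups. The 4 matched epithelial markers summed to 510 to 694.9 CPM in pregnant and 1592.8 to 2345.9 CPM in control libraries, with 3 lower. Those 3 were keratin genes, KRT8 (−2.10 ± 0.19), KRT18 (−1.58 ± 0.18) and KRT19 (−1.83 ± 0.30). KRT8 alone averaged 294 ± 53 CPM in pregnant and 1257.2 ± 251.5 CPM in control libraries. EPCAM overlapped between groups and did not pass (−0.32 ± 0.21, edgeR adjusted p = 0.315). The 3 stromal markers summed to 7915.9 to 12342 CPM in pregnant and 14548.9 to 18004 CPM in control libraries, with 1 lower. That gene, COL3A1 (9337.7 ± 1829.8 CPM in pregnant and 14899.2 ± 1327.1 CPM in control libraries), makes up most of the stromal sum, while DCN (0.02 ± 0.15) and PDGFRA (0.19 ± 0.17) did not pass. Of 2 endothelial markers 1 rose (220.4 to 330.8 CPM in pregnant and 176.9 to 299.5 CPM in control libraries). The part of these cell type differences in the rise of the proteasome genes was not tested.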

How the data were processed

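Whole-number counts for the transcripts of a merged assembly, 1 file per animal, were deposited by the authors together with the exon annotation. Among the tools, CASAVA 1.6, TopHat 1.4, Cufflinks 1.3 and DESeq are listed in the submitters' processing notes, as is the build Sscrofa10.2; the counting tool is not given in the sources used here. Libraries were made from poly(A) RNA without strand marking and with 15 PCR cycles, per the labels' protocols. Symbols came from RefSeq's table of Sscrofa11.1, used for names only.

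The 24139 transcripts were filtered (filterByExpr, minimum count 10), scaled by TMM and tested with edgeR 4.0.16 in R 4.3.3, robust quasi-likelihood, with group as the only term and Benjamini-Hochberg adjustment. SE are those implied by the F statistic. Alternatives used DESeq2 1.42.0 and limma 3.58.1. CPM use TMM-scaled totals of the tested transcripts, and CPM per kb divide by exon length in the merged annotation. Scripts were tested on simulated data.

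Members and lists were chosen with earlier results of these data known. Every member is named, and of each of the 4 lists of genes that work with the proteasome the 4 with the smallest p, of which 1 is not reported here. CALR, THOP1, KRT8, KRT18, KRT19, EPCAM, COL3A1, DCN, PDGFRA and JCHAIN were named after their values were seen. The neighbours of PSME1 and PSME2 and the ratios of PSMB9 to PSMB8 and PSME2 to PSME1 were added after values were seen. A ratio of PSMB10 to PSMB7 was planned and could not be formed.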

Additional observations from a re-analysis of the deposited data

Results flagged for a closer look

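Within each group of 4 libraries, the highest or lowest CPM of a tested member, or share of PSMB8 or PSMB9 at its catalytic position, was marked where its gap to the nearest library exceeded Dixon's critical share of the group's range. Of 76 groups 5 were marked, where chance marks about 1 in 20. Control replicate 1 accounts for 4 of them. It stood at 123 CPM for PSMA7, with the other controls at 87.4 to 92.1 CPM, at 67.1 CPM for PSMB7, with the others at 51 to 52.1 CPM, and at 188 CPM for PSMC5, with the others at 138 to 145 CPM. It was lowest for PSMD12, at 9.9 CPM, with the others at 16 to 17.3 CPM. Pregnant replicate 3 was lowest for PSMD1, at 64.5 CPM, with the other pregnant libraries at 67.6 to 68.2 CPM. PSMA7, PSMB7, PSMC5, PSMD12 and PSMD1 did not pass in the comparison of pregnant with control, with or without control replicate 1.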

How the results depend on the processing

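The 4 immune genes passed as higher under RLE or upper-quartile scaling, no filter, 1 transcript per gene, DESeq2 and limma voom. They also passed with the replicate block and with each library left out. Each has 1 transcript, so the run with the lowest-count transcript repeats their main result. Over all members and alternatives, 556 log2 changes kept their side of the threshold and 20 kept their direction but lost the call. Those 20 were of PSMA5, PSMA6, PSMD9 and PSME4. Among members that did not pass, some changed sign, such as PSMC1 (−0.05 to 0.11) and PSMD4 (−0.20 to 0.02). With 1 library left out, 3 to 6 of the other members passed as higher and 0 to 1 as lower, and among all transcripts 1599 to 2110 passed as higher and 1265 to 2017 as lower, the lowest without pregnant replicate 2. The log2 differences of the ratios ran from 2.36 to 2.69 for PSMB8 to PSMB5, from 3.05 to 3.35 for PSMB9 to PSMB6, from 0.63 to 0.94 for PSME1 to PSME3 and from 0.93 to 1.23 for PSME2 to PSME3, where the exact permutation test with 3 against 4 libraries cannot go below p = 0.0571.

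Equal replicate numbers do not pair the animals in the labels, and deviations of same-numbered libraries correlated at 0.245, −0.176, −0.020 and 0.100. With the replicate block, 2070 transcripts passed as higher and 1813 as lower, and PSMA5 did not pass (edgeR adjusted p = 0.0649). The ratio differences with the replicate block, 2.54, 3.19, 0.80 and 1.10, equal those without it by arithmetic. There, 4 pairs cannot go below an exact p = 0.125. The ratios stayed past the threshold with a pseudocount of 1 read. Each gene of the ratios has 1 transcript, so the lowest-count transcript gives the same ratios and no separate check. For the shares per catalytic position, gene-wide exon lengths equal those of the transcripts counted, so they give no separate check. With a library left out, the mean share of PSMB8 was 78% to 79.3% in pregnant and 36.2% to 41.5% in control libraries. That of PSMB9 was 76.9% to 80% in pregnant and 26.5% to 30.4% in control libraries.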

Other observations

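The highest and lowest places among the tested members were spread unevenly over the libraries of a group. These places were counted for the members only, so whether all transcripts show the same spread is not known. Among the controls, replicate 1 was the highest library for 18 of the 36 tested members and the lowest for 11. It was the highest control for PSMB8, PSMB9, PSME1 and PSME2, and also for PSMB4, PSMB5, PSMB6 and PSMB7. It was the lowest for PSMA1, PSMA3, PSMA4, PSMC6, PSMD1, PSMD5, PSMD11, PSMD12, PSMD14, PSME3 and PSME4. Control replicate 4 was the lowest for 17 members and the highest for 1. Among the pregnant libraries, replicate 3 was the highest for 25 members and replicate 1 the lowest for 17. What sets these libraries apart was not tested.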
